A study of Mus musculus with 9 samples.

Results

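The genes for the subunits of glutamate and GABA receptors were followed in RNA bound to tagged endothelial ribosomes, and in input RNA, of mouse cerebral cortex. They were taken by symbol, as the gene rows that begin with Gria, Grid, Grik, Grin or Grm and a digit, with Gabr and one of the letters a, b, d, e, g, p, q or r, or with Gabbr. This gave 49 of 32531 gene rows. Of these, 47 encode receptor subunits: 4 AMPA, 5 kainate, 7 NMDA and 2 delta receptor subunits, 8 metabotropic glutamate receptors, 19 GABA-A and 2 GABA-B receptor subunits. The other 2 match by spelling alone: Grid2ip encodes a scaffold protein that binds a delta receptor, and Grin1os is an RNA antisense to Grin1.

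Glutamate and GABA are the main excitatory and inhibitory transmitters of the cortex. AMPA, kainate and NMDA receptors are cation channels built from several subunits, GABA-A receptors are chloride channels made of pentamers of mixed subunits, and metabotropic glutamate and GABA-B receptors act through G proteins. Most of these subunits are known from neurons, and some, such as Grm3 and Grm5, also from astrocytes.

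The libraries came from untreated adult mice of the Abcb1a-EGFP/Rpl10a line ES3026, in which sequence of Abcb1a, the gene of an efflux pump of blood-brain barrier cells, controls a green fluorescent protein fused to the ribosomal protein Rpl10a. Antibodies to the fluorescent protein pull down tagged ribosomes with the RNA they carry, a method called TRAP. There were 3 immunoprecipitated (IP) libraries from investigator ES, 3 IP libraries from investigator JL and 3 input libraries from JL, all from cortex of this line, and the submitters name no other difference between ES and JL samples. The labels do not tell whether each library stands for its own mouse, so the p-values below measure the spread between libraries, which may be technical. Gene counts per library ran from 31987470 to 46598478, and 3 counts correspond to 0.0577 to 0.101 CPM (counts scaled to library size).

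Libraries did not all match their label of endothelial cells equally well. The summed level of 20 pan-endothelial marker genes was 1338 to 2102 CPM in ES IPs, 11994 to 12512 CPM in JL IPs and 80.2 to 91.0 CPM in the JL inputs. For 17 general neuron genes, such as Snap25 and Syt1, the sum was 22256 to 24591 CPM in ES IPs, 2540 to 3258 CPM in JL IPs and 19056 to 19947 CPM in the JL inputs. No gene of either list was at 0 in all libraries of a group. The ES IPs thus held the endothelial genes and these general neuron genes above the inputs on these sums. For 12 excitatory neuron genes the sums overlapped, at 3216 to 4836 CPM in ES IPs and 3311 to 3569 CPM in the inputs. For 14 inhibitory neuron genes the ES IPs lay below the inputs, at 1078 to 1187 CPM against 1608 to 1728 CPM. The JL IPs held far more endothelial and far less neuron RNA. ES libraries shared sequencing lane 6 and JL libraries ran on lanes 2, 3 and 4, so investigator and lane cannot be told apart.

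Promoter sequence is shown for 4 subunits that behaved differently below: Grik5 and Grm2, which fell least in JL IPs within their classes, Grik3, the only subunit called higher in ES IPs than in the inputs, and Gria2, which fell with the neuron genes. Each is the 250 bases before the RefSeq start in GRCm38.p6, read 5′ to 3′ on the gene's own strand, at chr7:25072370-25072619 (minus strand), chr9:106656110-106656359 (minus), chr4:125490446-125490695 (plus) and chr3:80802836-80803085 (minus). Capitals mark the GC box GGGCGG, which Sp1 family factors bind, or its reverse complement CCGCCC, and TTCAGCACC, the left part of the RE1 element known for the neuronal repressor REST.
Grik5: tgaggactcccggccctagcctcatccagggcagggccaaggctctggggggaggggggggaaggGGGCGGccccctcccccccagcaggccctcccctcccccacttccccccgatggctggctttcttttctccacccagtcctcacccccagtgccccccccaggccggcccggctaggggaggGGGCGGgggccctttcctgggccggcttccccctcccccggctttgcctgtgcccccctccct
Grm2: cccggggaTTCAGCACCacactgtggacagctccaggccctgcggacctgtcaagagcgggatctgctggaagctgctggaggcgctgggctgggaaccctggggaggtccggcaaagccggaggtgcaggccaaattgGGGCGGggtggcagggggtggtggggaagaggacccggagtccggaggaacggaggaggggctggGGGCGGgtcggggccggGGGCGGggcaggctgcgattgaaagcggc
Grik3: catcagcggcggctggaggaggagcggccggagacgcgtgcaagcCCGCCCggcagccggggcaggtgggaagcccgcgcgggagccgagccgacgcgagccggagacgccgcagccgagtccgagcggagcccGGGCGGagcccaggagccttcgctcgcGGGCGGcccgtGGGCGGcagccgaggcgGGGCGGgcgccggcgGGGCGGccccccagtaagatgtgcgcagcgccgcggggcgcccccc
Gria2: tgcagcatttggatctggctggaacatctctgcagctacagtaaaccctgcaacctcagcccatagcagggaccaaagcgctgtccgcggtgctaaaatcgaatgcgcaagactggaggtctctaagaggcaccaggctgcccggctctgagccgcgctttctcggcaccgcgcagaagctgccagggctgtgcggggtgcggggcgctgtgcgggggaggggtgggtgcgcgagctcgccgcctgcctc
The GC content of these windows is 75.2%, 71.2%, 82.0% and 64.8% in the order shown. RefSeq entries were found for 32 of the 47 subunits, and on either strand the GC box occurs in 17 of the 32 (53.1%), against 35.4% of 27025 genes. TTCAGCACC occurs in 1 of the 32, Grm2 (3.13%), against 0.348% of all genes. The TATA box TATAAA occurs in Gabra3, Gabrb2 and Grin3b (9.38%, against 14.3% of all genes), and the cAMP response element TGACGTCA in none of the 32, against 1.77%; its shorter core TGACG, which overlaps it, occurs in 3 (9.38%, against 19.8%). The median GC content was 59.6% for the subunits and 52.4% for all genes. These matches describe letters only.

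In the inputs, which show the cortex as a whole, the AMPA receptor subunit Gria2 stood among the highest per kilobase of exon, at 61.9 ± 1.8 CPM per kb (SD, n = 3 for each value here). The GABA-A receptor subunit Gabrb2 lay below it at 57.0 ± 0.84 CPM per kb, and their libraries did not overlap. Gria1, at 45.9 ± 0.67 CPM per kb, and the GABA-B receptor subunit Gabbr1, at 45.4 ± 0.44 CPM per kb, overlapped. In both kinds of IP, where Gabbr1 had 31.0 ± 1.1 CPM per kb in ES IPs and 9.62 ± 1.9 CPM per kb in JL IPs, neighbours among the first 14 members overlapped, so their order is not resolved. The 47 subunits summed to 2274 to 3052 CPM in ES IPs, 751.9 to 1028 CPM in JL IPs and 5382 to 5524 CPM in the inputs.

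Receptor subunit RNA was lower in JL IPs than in the JL inputs in every class. Of 49 members 44 had enough counts to be tested, and 41 of the 44 were lower and 0 higher at an adjusted p under 0.05, where 37.4% of all 17357 genes tested were lower and 36.7% higher. Without Grid2ip and Grin1os, which are no subunits, 39 of 42 were lower. The count of 0 higher also held at an unadjusted p under 0.05, in DESeq2 and in limma-voom. All 44 had their JL IP libraries below every input, as did 42.1% of all genes. The median log2 fold change of the 44 was -2.62, against -2.69 for the 17 neuron genes and -0.09 for all genes. These are levels in pulled-down RNA set against input RNA, so they measure neither the number of neurons nor the RNA per neuron. Of the sums given above, that of the neuron genes fell too and that of the endothelial genes rose, and their part in the fall of the subunits was not tested.

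AMPA receptors carry fast excitatory transmission, and their 4 subunits fell together, with a median log2 fold change of -2.80. Gria2, the subunit whose edited form keeps calcium out, had 98.4, 116 and 155 CPM in JL IPs, against 943, 951 and 994 CPM in the JL inputs. Its JL IP libraries all lay far below the inputs (log2 fold change -2.97, SE 0.16, adjusted p 3.89e-07). Gria4 fell least of the class, with 15.6, 16.6 and 22.4 CPM in JL IPs and 98.0, 103 and 107 CPM in the inputs (-2.50, SE 0.14, adjusted p 5.30e-07). Again no libraries overlapped.

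Kainate receptors modulate transmission on both sides of the synapse, and their subunits did not fall alike. Grik5, a subunit with high affinity for kainate that forms channels with Grik1 to Grik3, had 33.4, 33.5 and 38.6 CPM in JL IPs, against 71.9, 77.5 and 79.7 CPM in the inputs. It fell by 1.12 on the log2 scale (SE 0.09, adjusted p 6.38e-06), the smallest fall of any tested member, close to that of Grin2d given below. Grik1, one of its channel-forming partners, had 1.76, 1.25 and 1.29 CPM in JL IPs and 11.1, 10.03 and 9.57 CPM in the inputs (-2.84, SE 0.23, adjusted p 5.86e-06). Grik3, a partner of the same kind, had 13.5, 17.9 and 21.5 CPM in JL IPs and 87.1, 83.9 and 90.7 CPM in the inputs (-2.31, SE 0.16, adjusted p 1.78e-06). Neither pair of groups overlapped, and Grik2 (-2.63) and Grik4 (-2.05) lay between Grik1 and Grik5.

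**Figure D1:**
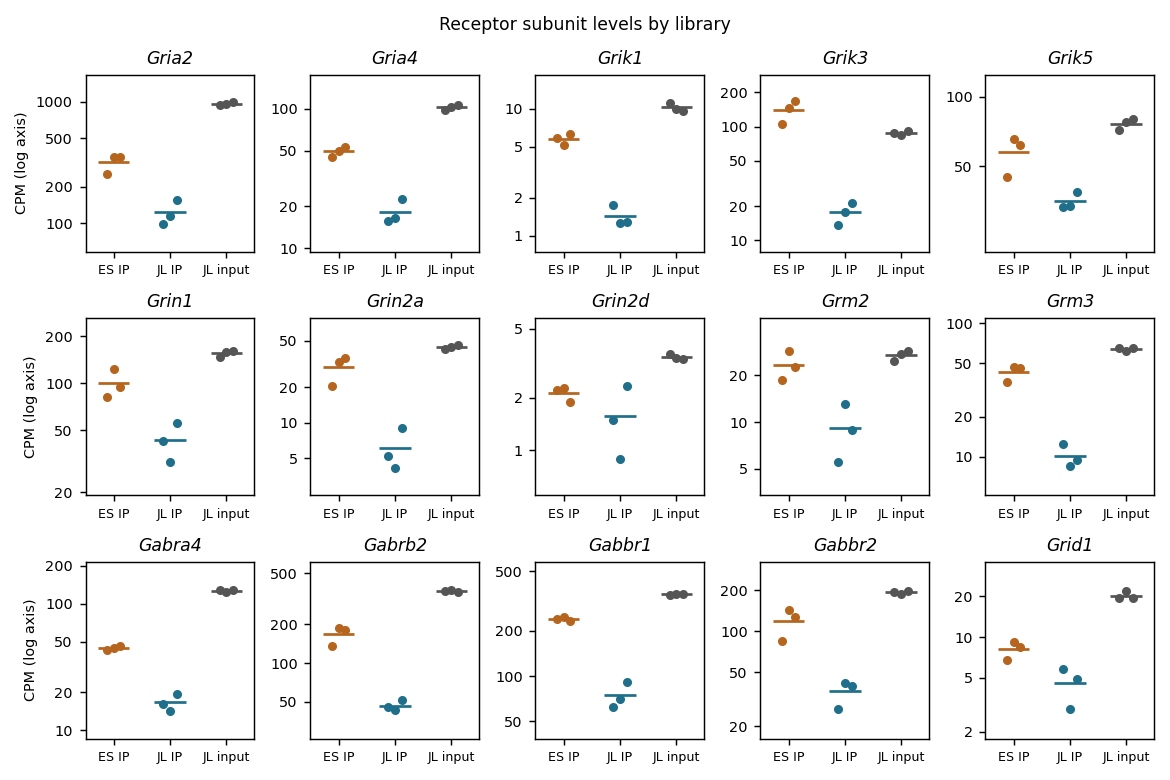
Levels of 15 subunits in each library, in CPM on a log axis, with a point per library and a line at the mean of 3 libraries in the ES IP, JL IP and JL input groups. The JL IP means lie lowest in all 15 panels; Grik5 has the smallest fall (33.4 to 38.6 CPM in JL IPs against 71.9 to 79.7 CPM in inputs), and Grik3 has ES IPs above the inputs (106 to 168 against 83.9 to 90.7 CPM).

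NMDA receptors need the glycine-binding subunit Grin1, to which glutamate-binding Grin2 subunits are added. Grin1 had 42.4, 31.1 and 55.5 CPM in JL IPs, against 146, 158 and 160 CPM in the JL inputs (-1.85, SE 0.18, adjusted p 2.09e-05). Grin2a, common in adult forebrain, had 5.27, 4.10 and 9.04 CPM in JL IPs and 42.0, 44.0 and 45.9 CPM in the inputs, and fell furthest of the class (-2.85, SE 0.26, adjusted p 1.28e-05). Grin1 thus kept a larger share of its input level than its partner, without overlap in either case. Grin2d, known from interneurons and the young brain, had 1.49, 0.884 and 2.34 CPM in JL IPs and 3.58, 3.39 and 3.36 CPM in the inputs (-1.14, SE 0.39, adjusted p 0.0262). That call was lost without any one of the inputs, at an adjusted p of 0.0844, 0.0728 and 0.0734 without input 1, 2 and 3. Grin2b (-2.84), Grin2c (-2.65) and Grin3a (-2.63) fell, and Grin3b, under 0.5 CPM in every library, was not called (adjusted p 0.0759). Grin3b was called lower with limma-voom (adjusted p 8.09e-03) and without JL IP replicate 3 (adjusted p 1.78e-03).

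Delta receptors bind cerebellins and organise synapses rather than open to glutamate. Grid1 had 5.78, 2.94 and 4.92 CPM in JL IPs and 19.6, 21.8 and 19.4 CPM in the JL inputs (-2.17, SE 0.24, adjusted p 4.54e-05). Its JL IPs all lay below the inputs. The scaffold Grid2ip (-2.61, adjusted p 0.0315) was called lower with all libraries and lost the call without JL IP replicate 2 or any one input (adjusted p 0.0766 to 0.0860).

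Metabotropic glutamate receptors fell with a median log2 fold change of -2.42 over 7 tested members. Grm5, coupled to phospholipase C, had 26.7, 22.9 and 40.6 CPM in JL IPs and 169, 171 and 173 CPM in the JL inputs (-2.51, SE 0.19, adjusted p 3.78e-06). Grm2, a presynaptic receptor that lowers cyclic AMP, had 5.51, 13.1 and 8.91 CPM in JL IPs and 24.8, 27.5 and 28.5 CPM in the inputs, the smallest fall of the class (-1.55, SE 0.27, adjusted p 8.22e-04). Its JL IPs spread widely yet stayed below every input. Grm3, the close relative of Grm2 that astrocytes also make, had 12.5, 8.58 and 9.47 CPM in JL IPs and 65.9, 62.2 and 64.9 CPM in the inputs (-2.66, SE 0.15, adjusted p 4.95e-07). Grm4, a presynaptic receptor of the same inhibitory coupling, had 6.32, 9.41 and 11.3 CPM in JL IPs and 28.9, 32.3 and 35.1 CPM in the inputs (-1.84, SE 0.21, adjusted p 4.86e-05). Each of these fell without overlap between the groups. Grm6, known from the retina, had at most 0.0685 CPM in any library and was not tested.

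GABA-A receptor subunits had a median log2 fold change of -2.75 over 15 tested members. Gabrg3, a gamma subunit, had 2.20, 2.02 and 2.71 CPM in JL IPs and 19.5, 19.5 and 21.8 CPM in the JL inputs (-3.14, SE 0.17, adjusted p 5.19e-07). Gabrb2, which helps form the GABA binding site, had 45.8, 43.2 and 51.6 CPM in JL IPs and 363, 367 and 357 CPM in the inputs (-2.95, SE 0.08, adjusted p 1.14e-08). No libraries overlapped for either gene. Alpha subunits fell too, with log2 fold changes of -2.75 for Gabra2, -2.60 for Gabra3, -2.95 for Gabra4 and -2.75 for Gabra5. Gabrd, the subunit of extrasynaptic receptors, fell less (-2.22, SE 0.31, adjusted p 2.08e-04). Gabrr2, a rho subunit known from the retina, had 0, 0.285 and 0.759 CPM in JL IPs and 0.846, 0.764 and 0.914 CPM in the inputs and was not called (adjusted p 0.257). Without JL IP replicate 3 it was called lower (adjusted p 0.0417). Gabre, a rare subunit, was also not called (adjusted p 0.0813), although it passed with lane as a block (adjusted p 0.0320). Gabra6, Gabrp, Gabrr1 and Gabrr3 stayed under 0.6 CPM in every library and were not tested.

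GABA-B receptors are pairs of Gabbr1, which binds GABA, and Gabbr2, which couples to the G protein. Gabbr1 had 62.6, 70.7 and 90.8 CPM in JL IPs and 348, 354 and 354 CPM in the JL inputs (-2.24, SE 0.13, adjusted p 6.58e-07). Gabbr2 had 26.8, 41.8 and 39.8 CPM in JL IPs and 194, 189 and 197 CPM in the inputs (-2.42, SE 0.15, adjusted p 1.26e-06). Both partners fell by close amounts, with no overlap.

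**Figure D2:**
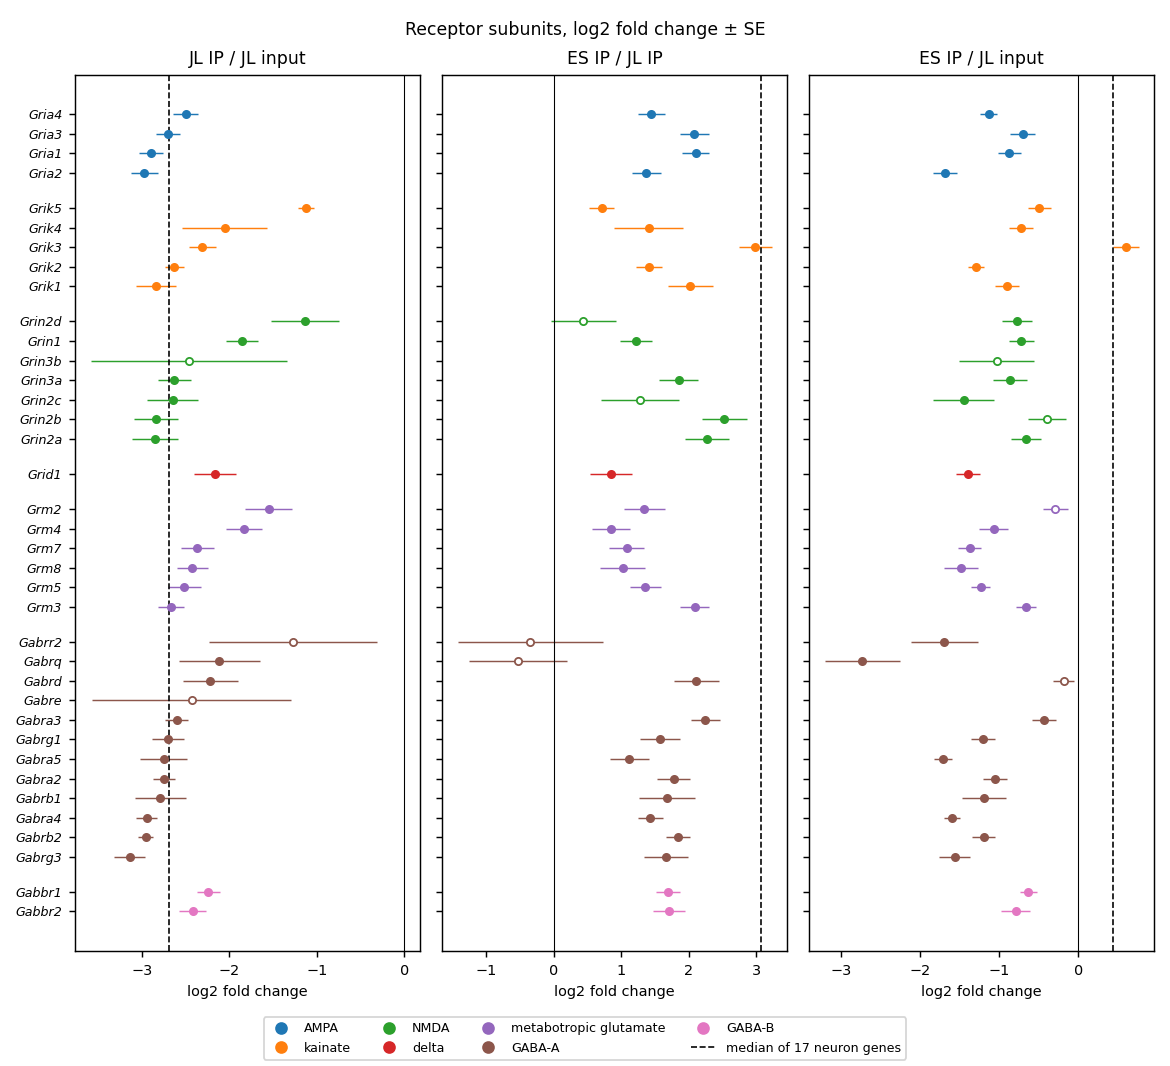
Log2 fold change with its standard error for tested subunits, by receptor class, in JL IP over JL input, ES IP over JL IP and ES IP over JL input; filled points have an adjusted p under 0.05, and the dashed line is the median of 17 neuron genes. Members lie around the neuron median (-2.69) in the first panel and below it in the other panels (3.07 and 0.44), except Grik3 (0.60) in the last; Gabre, at 0 counts in all ES IPs, is left out there.

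Since neuron genes fell as a whole in JL IPs, each member was also compared per count of the 17 neuron genes, of which Snap25 alone made up 47.3% to 54.2%. On this scale most genes lie higher in JL IPs than in the inputs: 77.9% of 17357 genes were called higher and 2.03% lower, with a median of 2.73. The 17 neuron genes themselves scattered on it, from -1.01 to 1.32, with 5 called higher and 1 lower. Among the 44 tested members 8 were higher and 0 lower, with a median of 0.18. No member was lower at an unadjusted p under 0.05 either. A call on this scale thus does not set a member apart from the neuron genes, some of which were called too. No AMPA and no GABA-A receptor subunit was called in this fit, though some were under the alternatives given below. The 8 were Grik5 (1.69, SE 0.14, adjusted p 1.60e-07), Grin2d (1.63, SE 0.41, adjusted p 2.84e-03), Grm2 (1.27, SE 0.29, adjusted p 1.43e-03), Grm4 (0.96, SE 0.20, adjusted p 8.53e-04), Grin1 (0.93, SE 0.15, adjusted p 1.13e-04), Grid1 (0.64, SE 0.27, adjusted p 0.0429), Gabbr1 (0.56, SE 0.12, adjusted p 1.27e-03) and Grik3 (0.49, SE 0.16, adjusted p 0.0136).

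Per 1000 neuron gene counts, Grik5 had 13.0, 13.2 and 11.8 counts in JL IPs and 3.77, 4.03 and 3.998 in the JL inputs. Grin1 had 16.5, 12.3 and 17.02 in JL IPs and 7.68, 8.24 and 8.03 in the inputs. Grm2 had 2.14, 5.16 and 2.74 in JL IPs, replicate 2 standing well above the others, and 1.30, 1.43 and 1.43 in the inputs. By contrast Gria2 had 38.2, 45.6 and 47.7 in JL IPs and 49.5, 49.5 and 49.9 in the inputs, all JL IPs lying below the inputs by a log2 difference of -0.18 that was not called (adjusted p 0.229). Grik5, Grin2d, Grm2, Grm4 and Grin1 stayed called when the sum of 12 excitatory neuron genes was used in its place, whereas Gabbr1, Grid1 and Grik3 did not (adjusted p 0.191, 0.254 and 0.366). Grid1 and Grik3 also lost the call without any one input (adjusted p 0.0520 to 0.149). With lane as a block, Gabbr2 was called higher as well (0.36, adjusted p 0.0276). Without JL IP replicate 3 the counts were 13 higher, Gria4 among them, and 5 lower, among them Gabre, Gria2 and Grin3b, with 13958 higher and 476 lower over all genes. Without JL IP replicate 1 they were 12 higher, Gabrd, Gabrq and Gabrr2 among them, and 1 lower, with 13857 higher and 456 lower over all genes. With the excitatory neuron genes or the median ratio over the neuron genes, the members called lower were GABA-A receptor subunits.

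Exons of 3 of the 8 share bases with an antisense gene in the GENCODE M21 annotation: 13.5% of the exon length of Grin1 (chr2:25291181-25319187) with Grin1os, 9.66% for Grin2d (chr7:45831883-45878378) and 9.60% for Grm2 (chr9:106643095-106656082). The strand setting of the counting is unknown here, and reads of such pairs cannot be told apart. Grik5 (chr7:25009849-25072346), Grm4, Gabbr1 and Grik3 share none, and Grid1 shares 1.53% with a small RNA gene. Ambiguous reads made up 2.04% to 2.13% in JL IPs and 10.3% to 11.3% in the inputs, and their part in these differences was not tested.

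**Figure D3:**
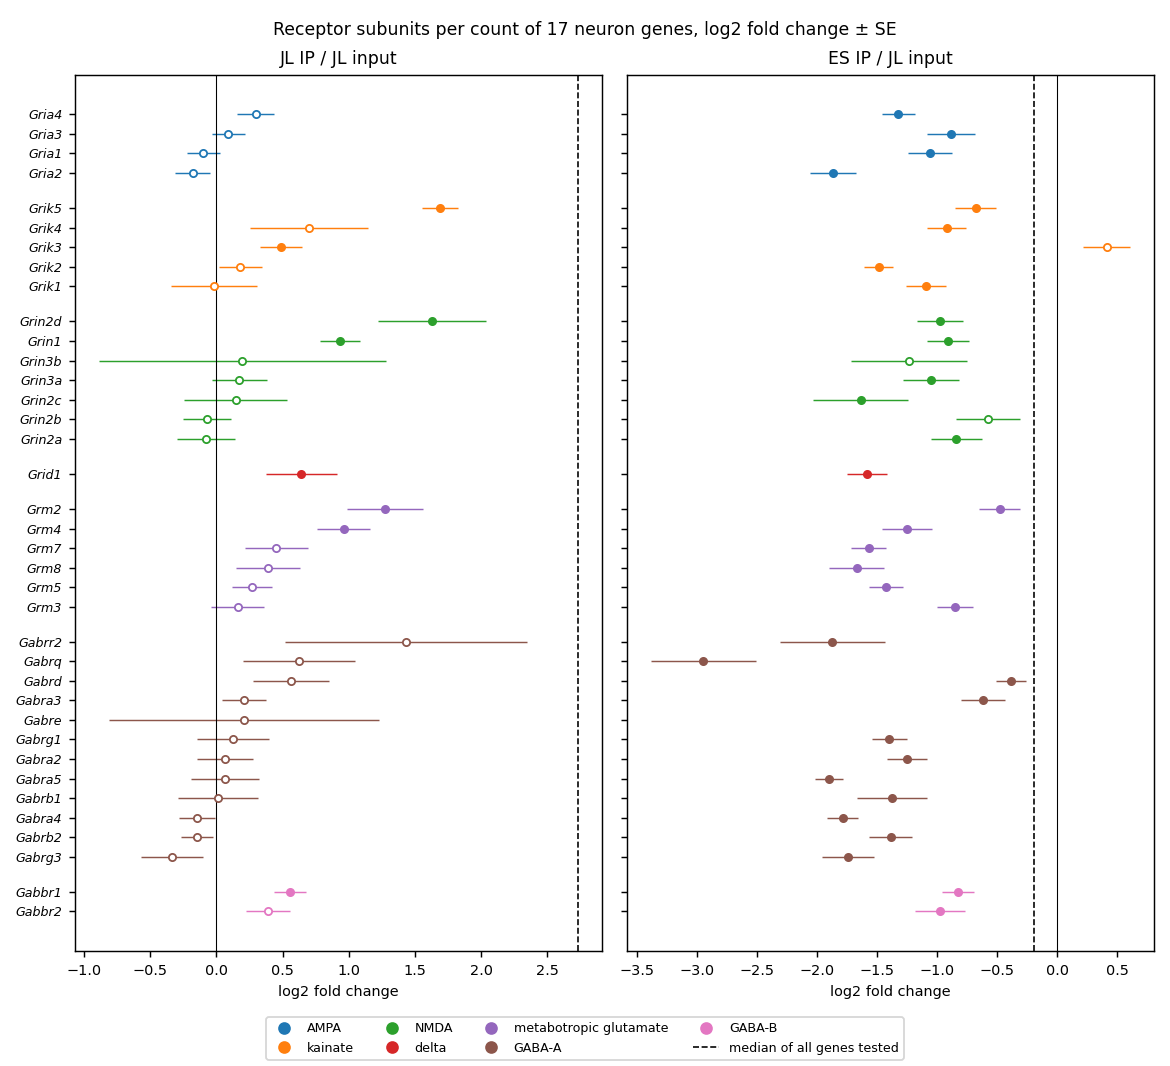
Log2 fold change with its standard error per count of 17 neuron genes, in JL IP over JL input and ES IP over JL input; filled points have an adjusted p under 0.05, and the dashed line is the median of all genes tested (2.73 and -0.19). Grik5 and Grin2d lead the left panel (1.69 and 1.63) and Grik3 the right (0.41, not called); Gabre is left out on the right.

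ES IPs held more receptor subunit RNA than JL IPs, but by less than the neuron genes. Of 41 members tested 36 were higher and 0 lower, where 29.7% of 16212 genes were higher and 28.2% lower; the count of 0 lower also held at an unadjusted p under 0.05, in DESeq2 and in limma-voom. In 36 members every ES IP lay above every JL IP, as for 33.7% of all genes. The median log2 fold change was 1.44, against 3.07 for the 17 neuron genes and 0.03 for all genes. Every tested member lay below that neuron median, but most genes rose less than the neuron genes. Per count of the 17 neuron genes, 15666 of all 16212 genes had a negative log2 fold change. Grik3 rose most, with 106, 145 and 168 CPM in ES IPs and 13.5, 17.9 and 21.5 CPM in JL IPs (2.99, SE 0.24, adjusted p 2.14e-06). Grin2b, the Grin2 subunit that leads early in development, followed with 107, 212 and 212 CPM in ES IPs and 20.9, 26.3 and 44.9 CPM in JL IPs (2.53, SE 0.33, adjusted p 6.61e-05). ES IP replicate 1 was the lowest ES library for both genes and still lay above the JL IPs. Grik5 rose least of those called, with 45.1, 65.9 and 61.8 CPM in ES IPs and 33.4, 33.5 and 38.6 CPM in JL IPs (0.71, SE 0.19, adjusted p 7.47e-03). Calls of Grid1, Grik4, Grm4 and Grm8 were among those lost without ES IP 1, 2 or 3 or JL IP 1 or 2, at adjusted p values of 0.0513 to 0.134.

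The 5 members not called between ES IPs and JL IPs were Gabrq (-0.53), Gabrr2 (-0.35), Grid2ip (1.10), Grin2c (1.28) and Grin2d (0.44), and their libraries overlapped. Grin2d had 2.21, 2.28 and 1.89 CPM in ES IPs and 1.49, 0.884 and 2.34 CPM in JL IPs. Gabrr2 had 0.146, 0.365 and 0.310 CPM in ES IPs, within the range of 0 to 0.759 CPM in JL IPs, and its sign depended on the fit. Per count of the 17 neuron genes, 37 of the 41 members were lower in ES IPs and 0 higher, with 0 higher at an unadjusted p under 0.05 too. Of all genes 88.9% were lower and 0.654% higher, so the share of members lower is near that of all genes. Grik3, at -0.07 (adjusted p 0.791), Grin2b (-0.50) and Grid2ip (-1.81) were among those not called.

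Against the JL inputs, the ES IPs were lower in most subunits although their summed level of the 17 general neuron genes lay above the inputs. Of 44 members tested 39 were lower and 1 higher, where 25.3% of 17477 genes were lower and 26.9% higher. Without Grid2ip and Grin1os, 37 of 42 were lower and 1 higher. In 39 of the 44 members every ES IP lay below every input, as for 29.1% of all genes. The median was -1.12, against 0.44 for the 17 neuron genes, of which 9 were called higher and 2 lower, and 0.00 for all genes. Other neuron lists lay lower, with medians of 0.04 for 12 excitatory neuron genes (0 higher, 2 lower) and -0.49 for 14 inhibitory ones (2 higher, 8 lower). Class medians were -1.004 for AMPA, -0.73 for kainate, -0.78 for NMDA, -1.24 for metabotropic glutamate, -1.20 for GABA-A and -0.71 for GABA-B receptors. This comparison shares the inputs with that of the JL IPs and the ES IPs with that between investigators, and investigator and lane differ along with the fraction.

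Gria2 had 256, 349 and 350 CPM in ES IPs, against 943, 951 and 994 CPM in the JL inputs (-1.68, SE 0.15, adjusted p 8.48e-05), while Gria3 had 202, 244 and 308 CPM in ES IPs and 383, 384 and 390 CPM in the inputs (-0.70, SE 0.16, adjusted p 6.71e-03). Gabrb2 had 135, 189 and 179 CPM in ES IPs and 363, 367 and 357 CPM in the inputs (-1.20, SE 0.15, adjusted p 3.38e-04). All these ES libraries lay below the inputs. Gabrd, the extrasynaptic subunit, had 23.3, 20.1 and 19.1 CPM in ES IPs and 22.9, 20.7 and 23.5 CPM in the inputs, and the groups overlapped (-0.18, SE 0.13, adjusted p 0.271). Grm2 also overlapped, with 18.7, 28.6 and 22.7 CPM in ES IPs and 24.8, 27.5 and 28.5 CPM in the inputs (-0.29, SE 0.16, adjusted p 0.165). Grin2b (-0.39, adjusted p 0.196) and Grin3b (-1.03, adjusted p 0.101) were not called either. Gabrd became lower without ES IP replicate 1 (adjusted p 0.0318) and Grm2 without ES IP replicate 2 (adjusted p 0.0339), while Gabra3, Grik5, Grin2a, Grin2c and Grid2ip each lost the call without ES IP replicate 2 or an input (adjusted p 0.0506 to 0.109). Gabre had 0 counts in all 3 ES IPs and 1.46, 1.41 and 1.36 CPM in the inputs, at least 19.9-fold lower with 3 counts per library as the floor.

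Grik3 was the exception, with 106, 145 and 168 CPM in ES IPs and 87.1, 83.9 and 90.7 CPM in the JL inputs (0.60, SE 0.17, adjusted p 0.0162). Every ES IP lay above every input. The call did not hold under upper quartile scaling (0.45, adjusted p 0.0588) or without input 1, 2 or 3 (adjusted p 0.0644, 0.0704 and 0.0529). Per count of the neuron genes it was 0.41 higher and not called (adjusted p 0.108), while 41 of the 44 members were lower and 0 higher, also at an unadjusted p under 0.05, where 31.7% of all genes were lower and 19.4% higher. On that scale Grik3 became the 1 member called higher with the excitatory neuron genes (0.45, adjusted p 0.0445) and without ES IP replicate 1 (0.60, adjusted p 5.43e-04).

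The make-up of 3 receptor classes, as the share of each subunit in the summed CPM per kb of its class, differed between the fractions. Among kainate receptor subunits Grik5 held 36.7 ± 2.3% in ES IPs, 68.0 ± 1.9% in JL IPs and 46.4 ± 1.5% in the JL inputs (SD, n = 3 for each share). Grik3 held 51.1 ± 3.0% in ES IPs, 19.5 ± 2.8% in JL IPs and 30.5 ± 0.80% in the inputs. Neither gene's shares overlapped between any of the 3 groups. Among AMPA receptor subunits Gria2 held 25.5 ± 1.4% in ES IPs, 34.3 ± 2.5% in JL IPs and 38.0 ± 0.57% in the inputs. It was first in JL IPs and the inputs but behind 2 others in ES IPs, Gria1 (33.0 ± 0.59%) and Gria3 (31.6 ± 2.0%). That order in ES IPs rests on division by exon length. In CPM alone Gria2 had the highest mean there, at 319 ± 54, against 251 ± 53 for Gria3 and 161 ± 28 for Gria1. Among NMDA receptor subunits Grin1 held 46.4 ± 5.4% in ES IPs, 61.9 ± 5.8% in JL IPs and 47.8 ± 1.8% in the inputs. Its shares in ES IPs overlapped the inputs, and those in JL IPs lay above both. Shares of a whole move together, so they carry no test of their own.

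**Figure D4:**
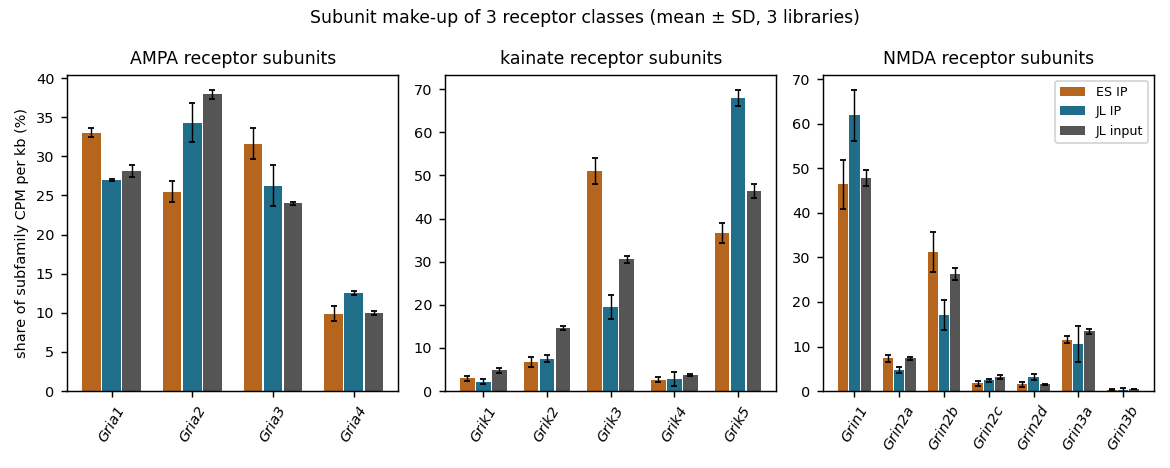
Share of each subunit in the summed CPM per kb of the AMPA, kainate and NMDA receptor subunits, in percent, as bars for the mean and error bars for the SD of 3 libraries in the ES IP, JL IP and JL input groups. Grik5 leads the kainate subunits in JL IPs (68.0%) and Grik3 in ES IPs (51.1%).

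Genes that work with these receptors were counted in JL IPs too, where, as given above, 36.7% of all genes were higher than in the JL inputs and 37.4% lower. Of 17 genes of auxiliary proteins of AMPA and kainate receptors 16 were lower and 0 higher. Frrs1l, an AMPA receptor assembly factor, had 40.1 ± 7.2 CPM in JL IPs and 378 ± 2.8 CPM in the inputs (-3.24, SE 0.13, adjusted p 7.19e-08). Abhd6, a hydrolase that binds AMPA receptors, fell by 0.82. Of 16 scaffold genes of glutamate synapses 14 were lower and 1 higher. That one was Homer3, a scaffold that binds group I metabotropic receptors, at 9.16 ± 0.19 CPM in JL IPs and 1.41 ± 0.11 CPM in the inputs (2.70, SE 0.21, adjusted p 4.67e-06). Of 13 scaffold and auxiliary genes of GABA receptors 9 were lower and 4 higher, the share higher being near that of all genes. The 4 were Gabarap, an autophagy and trafficking adaptor (2.08), Rdx, which links membrane proteins to actin (1.56), Kctd12, a GABA-B auxiliary subunit (1.35), and the palmitoyltransferase Zdhhc3 (0.92). The inhibitory scaffold gephyrin (Gphn) fell by 0.96.

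Transporters and enzymes of the 2 transmitters were counted in the same way. Of 9 glutamate transporters 7 were lower in JL IPs. Slc1a5 (0.86) and Slc1a1 were not called; Slc1a1 had 125 ± 15 CPM in JL IPs against 130.2 ± 10.6 CPM in the inputs (-0.06, adjusted p 0.616). All 5 GABA transporters and all 5 glycine receptor subunits tested were lower. Of 11 enzymes 10 were lower, among them the GABA-making Gad1 (-2.58) and Gad2 (-3.21), and 1 was higher: glutamine synthetase, Glul, at 1917 ± 103 CPM in JL IPs and 528 ± 27 CPM in the inputs (1.86, SE 0.07, adjusted p 7.19e-08). In the ES IPs against the inputs, 26.9% of all genes were higher and 25.3% lower. There the auxiliary genes of AMPA and kainate receptors were 0 higher and 13 lower. Scaffolds of glutamate synapses were 5 higher and 1 lower, and glycine receptor subunits 0 higher and 5 lower. The share of scaffolds called higher, 5 of 16, is near that of all genes. Dlg3, Dlg4, Homer1 and Pick1 were among the scaffold genes called higher there, and Homer2 was lower.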

How the data were processed

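RNA was measured by sequencing in 9 libraries, 3 each of ES IP, JL IP and JL input. Each deposited file holds unnormalised whole-number counts for every gene of a library. The alignment used STAR 2.0.0e and mm10 and the counting HTSeq, per the submitters' processing notes; for annotation and strand setting nothing is given in the sources used here. HTSeq's special rows stayed out of library sizes and tests (reads without a feature came to 17.3% to 24.4%, ambiguous reads to 2.04% to 11.3%), as did a row of unknown genes with at most 3 counts. The ribosomal RNA precursor Rn45s, kept in, held 6.04% to 12.0% of gene counts in ES IPs, 15.7% to 17.9% in JL IPs and 4.83% to 5.29% in the inputs.

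Tests used edgeR 4.0.16 under R 4.3.3 (filterByExpr, TMM, glmQLFit, glmQLFTest), with Benjamini-Hochberg adjustment over all genes tested at a threshold of 0.05, each fit holding only the libraries compared. Standard errors were taken from the log2 fold change over the root of the F statistic. For comparisons relative to neuron genes, the summed counts of 17 neuron genes replaced the library size. CPM use TMM factors over 9 libraries; per kb values divide by merged exon length in GENCODE M21, in which all 49 members were found. Scripts were tested on simulated data. Promoters are from RefSeq, GRCm38.p6. Sequences of proteins were not used here.

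The JL IP and JL input with the same number share a sequencing lane (4, 2 and 3) per the names of the deposited files. Their deviations from group means correlated at 0.188, 0.0931 and 0.115 over 14514 genes, each highest with its own number, so lane was used as a block in an alternative fit. Other alternatives were further scalings and filters, DESeq2 1.42.0, limma-voom (limma 3.58.1), a fit of all 9 libraries, other neuron scalings, and leaving out each library.

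Every member is counted; some, and results that need them, are not reported here by name. Values per library go to the member of each class that is highest per kb in the inputs, those with the smallest and largest log2 fold change of JL IP over JL input, and those higher relative to neuron genes (at most 8); other members with per-library values, and genes of other lists beyond the extremes with at least 5 CPM, were chosen after their values were seen. Members and the 17 gene lists were chosen with earlier results of these data known. The 3 comparisons share libraries and are not independent. The floor of 3 counts covers counting error only.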

Additional observations from a re-analysis of the deposited data

How the results depend on the processing

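Directions held under every alternative run, for members tested in the 3 comparisons and for members called relative to neuron genes, except for Gabrr2 and Gabrq, 2 low members not called between ES IPs and JL IPs. Gabrr2 there turned to 0.74 with limma-voom and 0.31 with the replicate block, and ranged between -0.92 and 0.88 when single libraries were left out; Gabrq ranged between -1.09 and 0.16. The count of members lower in JL IPs than in inputs stayed at 40 to 43 under other scalings, filters and tools and at 38 to 45 without single libraries, with 0 higher throughout. Relative to neuron genes the JL IP counts were less stable: 5 higher and 2 lower with the excitatory neuron genes, 6 and 2 with the median ratio over the neuron genes, 9 and 1 with the replicate block, and 6 to 13 higher and 0 to 5 lower without single libraries. Over all genes these fits gave, in the same order, 12809 higher and 491 lower, 13185 and 421, 13074 and 194, and 12897 to 13958 higher and 174 to 508 lower. Between ES IPs and JL IPs, 1 member, Gabre, became lower with no filter and with all 9 libraries in 1 fit; members higher numbered 31 to 36 without single libraries. Between ES IPs and inputs, 0 members were higher under upper quartile factors and 0 to 1 without single libraries, and 34 to 41 lower; relative to neuron genes 1 was higher with the excitatory neuron genes and 0 to 1 without single libraries. The cause of these changes was not tested. With the lane block, JL IP against input gave 41 lower and 0 higher, Gabre gaining and Grin1os losing its call (adjusted p 0.107), and no other call changed there. ES numbers share nothing but a number: deviations correlated at 0.0718, -0.0285 and 0.0387 with the JL IPs and at 0.0250, 0.00891 and 0.0281 with the inputs, and the block left 36 members higher and 0 lower between ES IPs and JL IPs. Scaling moved all genes: for JL IP against input the median over all genes shifted by -0.25 with upper quartile factors, -0.26 with library size alone and -0.43 with no filter, and higher calls fell to 41.8% and 41.6% of calls under these scalings, against 49.6%; for ES IP against input the shifts were -0.15 and -0.11, and the shares 40.7% and 43.2%, against 51.5%. Long transcripts ran lower in IPs: in 4 equal groups of genes by exon length, the longest had a median of -0.23 and the shortest 0.32 for JL IP against input, while members have a median exon length of 6305 bases. The 20 members in the longest group had a median of -2.71, and the 17 members in the next longest -2.42. Levels near 0.1 CPM rest on few counts. Groups of 3 libraries are below the smallest size of 4 set for an outlier test, so no outlier test is given.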
